A study of Drosophila melanogaster with 8 samples.

Results

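Chromatin regions with a called peak in female fru+ neurons or in female fru- neurons, but not in both, were chosen by comparing the peak lists of these 2 groups. ATAC-seq, which reads open DNA through insertion of adapters by the Tn5 transposase, gave 1 peak list for each group. On the 6 main chromosome arms, female peaks sharing 1 bp or more were joined into a single region. Of 12803 regions, 3022 (23.6%) held peaks of 1 female list only. These comprised 1305 regions in female fru+ only (10.2% of all regions) and 1717 in female fru- only (13.4%), and the other 9781 regions were in both female lists. Presence in the female lists selected these regions, so it is a description here and was not tested.

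The neurons came from the central brain of Drosophila melanogaster of the w1118 strain, aged 2 to 7 days, with the optic lobes removed. All flies, including those that gave fru- neurons, carried UAS-mCD8-GFP over MB247-Gal80 on one chromosome and Fru-GAL4 over a TM2 or TM6B balancer on another. Female fru+ neurons were sorted as GFP-positive cells and female fru- neurons as GFP-negative cells of the same dissections, and male fru+ and male fru- neurons were obtained in the same way from males. Each of these 4 groups had 2 replicates, 8 samples in all, but 1 peak list per group was used, so no value below has a replicate error and no difference between groups could be tested. Intervals are 95% Wilson intervals and cover counting error only.

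The fru gene encodes BTB zinc finger transcription factors. Transcripts of its most upstream promoter, fruP1, are spliced differently in the sexes, and the FruM protein is made in males only. Female fru+ and female fru- neurons therefore differ in the transcription of fru and in the kinds of neuron sorted, while FruM is absent from both. The reporter marks many unlike classes of neuron, MB247-Gal80 silences it in mushroom body Kenyon cells, and Kenyon cells that transcribe fru fall in the fru- sort. A peak can mark a promoter, an enhancer or another site open to the transposase, and in a mixed sort a weak peak cannot be told apart from a strong peak held by few of the cells.

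The lists held 11217 peaks in female fru+ and 11602 in female fru- on these chromosomes, against 11295 for male fru+ and 11206 for male fru-. The genome background recovered from the peak statistics, which follows sequencing depth, was 14.3 fragments in female fru+ and 16.4 in female fru-, which makes female fru+ the shallower of the pair. The free-text descriptions of the female fru+ samples name the male fru- group, and those of the male fru- samples name the female fru+ group, while the titles and file labels do not. X carried 20.3% of peaks in the list labelled female fru+ and 20.1% in female fru-, against 15.02% in male fru+ and 14.9% in male fru-. Of roX1, an RNA of the male dosage compensation complex, 240 bp lay under peaks of female fru+ and 246 bp under those of female fru-, against 1725 bp for male fru+ and 1711 bp for male fru-. By both measures the female fru+ list lay with the female fru- list. The neuronal gene nSyb had 1 peak in every list, the glial gene repo had none in any list, and repo marks the glia that a neuronal sort could hold.

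To show what lay under the summits, 6 members that the results turn on are printed as 200 bases around the summit of their strongest peak, on the plus strand of Release 6 (dm6), from the RefSeq genome. A window can run past the end of its region. Capitals mark matches to the motifs that were searched and are named further on. The intergenic site near ph-d (chrX:2125640-2125839) was among the female fru+ only regions of highest significance. The fru intron (chr3R:18508558-18508757) was the strongest member inside fru, and the site near lncRNA:CR45259 (chr2L:798122-798321, intergenic) likewise recurred in male fru+ and not in male fru-. The intergenic sites near CadN (chr2L:17784741-17784940) and CG7420 (chr2L:1504357-1504556) were among the strongest in female fru-, the one with peaks in both male lists and the other with none. The CG34417 intron (chrX:6571380-6571579) was the strongest of those that recurred in male fru- and not in male fru+.
near ph-d: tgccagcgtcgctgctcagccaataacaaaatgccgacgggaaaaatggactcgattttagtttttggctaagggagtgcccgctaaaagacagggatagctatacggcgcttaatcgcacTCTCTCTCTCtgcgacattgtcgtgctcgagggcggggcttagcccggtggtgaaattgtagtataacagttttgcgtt
fru intron: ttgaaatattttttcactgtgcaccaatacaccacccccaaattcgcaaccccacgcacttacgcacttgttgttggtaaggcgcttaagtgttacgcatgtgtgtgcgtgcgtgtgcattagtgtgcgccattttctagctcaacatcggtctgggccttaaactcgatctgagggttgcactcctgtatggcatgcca
near lncRNA:CR45259: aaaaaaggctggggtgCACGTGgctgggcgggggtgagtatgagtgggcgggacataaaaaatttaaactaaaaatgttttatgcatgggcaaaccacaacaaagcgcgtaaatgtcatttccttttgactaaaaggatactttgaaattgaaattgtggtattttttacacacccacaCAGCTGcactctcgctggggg
near CadN: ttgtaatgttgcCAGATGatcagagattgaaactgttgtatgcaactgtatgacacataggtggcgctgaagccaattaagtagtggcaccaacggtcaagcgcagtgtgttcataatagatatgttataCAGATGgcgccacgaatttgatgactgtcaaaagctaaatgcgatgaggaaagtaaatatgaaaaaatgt
near CG7420: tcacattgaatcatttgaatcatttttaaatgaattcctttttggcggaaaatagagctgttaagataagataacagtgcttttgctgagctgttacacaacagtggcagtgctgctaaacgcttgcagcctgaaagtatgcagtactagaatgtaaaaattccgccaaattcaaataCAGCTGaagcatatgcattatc
CG34417 intron: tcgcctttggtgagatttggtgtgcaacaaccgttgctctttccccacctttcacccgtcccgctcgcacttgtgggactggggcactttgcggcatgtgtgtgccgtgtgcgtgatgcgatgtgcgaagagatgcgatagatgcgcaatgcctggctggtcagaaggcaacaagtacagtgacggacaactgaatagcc

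The ph-d site held a GAGAGAGA run in reverse, the lncRNA:CR45259 site CACGTG and CAGCTG, the CadN site CATCTG in reverse at 2 places, and the CG7420 site CAGCTG. The fru and CG34417 windows held none of the searched motifs.

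Members were weak peaks in both directions. The fold enrichment, a ratio of fragments at the summit to those expected locally, had a median of 2.69 for female fru+ only regions in female fru+ and of 2.62 for female fru- only regions in female fru-. Regions of both female lists had medians of 4.79 in female fru+ and 5.002 in female fru-. By rank of -log10 q within its list, 82.8% of female fru+ only regions (80.6 to 84.7) and 78.8% of female fru- only regions (76.8 to 80.7) lay in the lowest 25%, against 10.5% of regions of both lists (9.88 to 11.1). Only 5 female fru+ only and 25 female fru- only regions ranked in the upper 50%. Members were also narrow. Their strongest peaks had a median width of 257 bp (female fru+ only) and 263 bp (female fru- only), close to the narrowest peak of each list, which was 171 bp for female fru+ and 175 bp for female fru-. A peak of 250 bp or less was the strongest peak of 47.1% of female fru+ only and 44.2% of female fru- only regions, against 6.07% of regions of both lists. Whether the other list held a signal too narrow or too weak to be called was not tested.

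The limit of the selection ran through a continuum of values. The weakest female fru+ only regions, at Pez, Prosap and sm, had a -log10 q of 3.16 and a fold of 2.10. At CenG1A, KrT95D and Ten-a, the weakest female fru- only regions had a -log10 q of 3.10 and a fold of 2.01. In CG43373 a female fru+ only peak of fold 2.36 lay 12 bp from a female fru- only peak of fold 2.42, while in vex the peaks of the 2 lists overlapped by 2 bp and counted as shared. Near misses in position were few, while most members were weak, as given above. A peak of the other female list lay within 500 bp of 119 female fru+ only regions (9.12%) and 137 female fru- only regions (7.98%), whereas 387 (29.7%) and 545 (31.7%) of them were more than 5000 bp from one.

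Members lay away from promoters. A promoter, taken as the 50 bp around a transcription start site, was overlapped by 104 female fru+ only regions (7.97%, 6.62 to 9.57) and 228 female fru- only regions (13.3%, 11.8 to 14.97), against 5078 regions of both lists (51.9%, 50.9 to 52.9). Introns held 644 female fru+ only regions (49.3%, 46.6 to 52.1) and 825 female fru- only regions (48.0%, 45.7 to 50.4), against 26.2% of regions of both lists (25.3 to 27.1). Intergenic sequence held 32.6% of female fru+ only and 28.4% of female fru- only regions, against 15.7% of regions of both lists. The promoter share of female fru- only regions exceeded that of female fru+ only regions, and their intervals did not overlap. Away from promoters, the median distance to the nearest start site was 5575 bp for female fru+ only and 5210 bp for female fru- only regions, against 4426 bp for regions of both lists. The X chromosome carried 21.1% of female fru+ only regions (19.0 to 23.4) and 19.9% of female fru- only regions (18.0 to 21.8), and its share of regions of both lists, 20.1%, lay inside both intervals.

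**Figure D1:**
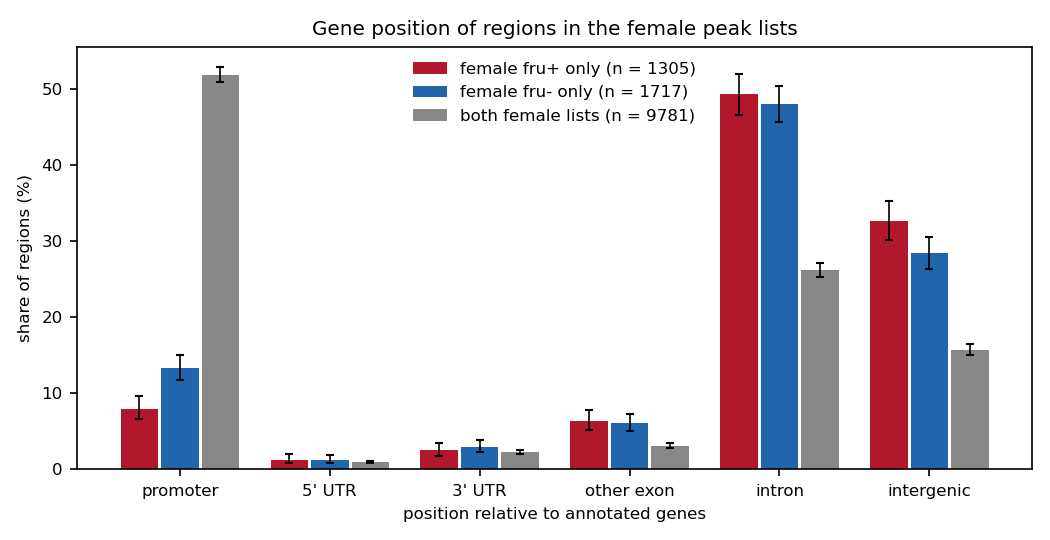
Share of regions (%, y axis) by position relative to annotated genes (x axis) for female fru+ only, female fru- only and both female lists, with 95% Wilson intervals as bars. Promoters held 7.97% of female fru+ only and 13.3% of female fru- only regions against 51.9% of regions of both lists, and introns held about equal shares of both kinds of member.

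The male lists were not used to choose the members, and they show how many recurred in neurons of the same fru status in the other sex. A male fru+ peak overlapped 496 female fru+ only regions (38.0%, 35.4 to 40.7) and a male fru- peak overlapped 390 (29.9%, 27.5 to 32.4). For female fru- only regions the order was the opposite, with a male fru+ peak at 581 (33.8%, 31.6 to 36.1) and a male fru- peak at 881 (51.3%, 49.0 to 53.7). No male peak was found at 651 female fru+ only regions (49.9%, 47.2 to 52.6) and 680 female fru- only regions (39.6%, 37.3 to 41.9), against 502 regions of both lists (5.13%, 4.71 to 5.59). Members were thus found in male neurons far less often than regions of both lists, which were also far stronger.

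Regions in exactly 1 male list separate the male groups. Among female fru+ only regions, 264 had a peak of male fru+ alone and 158 of male fru- alone, so that male fru+ had 62.6% of these (57.9 to 67.04). Of the 612 such regions among female fru- only, 156 were in male fru+ and 456 in male fru-, which gave male fru+ a share of 25.5% (22.2 to 29.1). Regions of both female lists gave male fru+ 24.3% (21.7 to 27.1), 233 against 727. The female fru+ only share therefore stood apart from that of regions of both lists, while the female fru- only share lay inside the interval of those regions. This contrast was as large at matched strength. In the lowest 25% of ranks, male fru+ had 63.7% (58.5 to 68.7) for female fru+ only, 27.3% (23.5 to 31.4) for female fru- only and 27.99% (23.7 to 32.8) for both lists. Away from promoters the shares were 63.5%, 25.6% and 23.0% in the same order. On autosomes they were 60.8% (55.8 to 65.5), 24.4% (21.1 to 28.1) and 17.4% (14.7 to 20.3). There the female fru- only share was not inside the interval of regions of both lists but above it. Above the lowest 25% of ranks, male fru+ had 57.8% (47.1 to 67.9) for female fru+ only, 48 of 83 regions. When peaks below a -log10 q of 10 were dropped from both female lists, which also turns regions of both lists into regions of a single list, the female fru+ only share was 47.8% (41.0 to 54.6), 96 regions against 105.

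**Figure D2:**
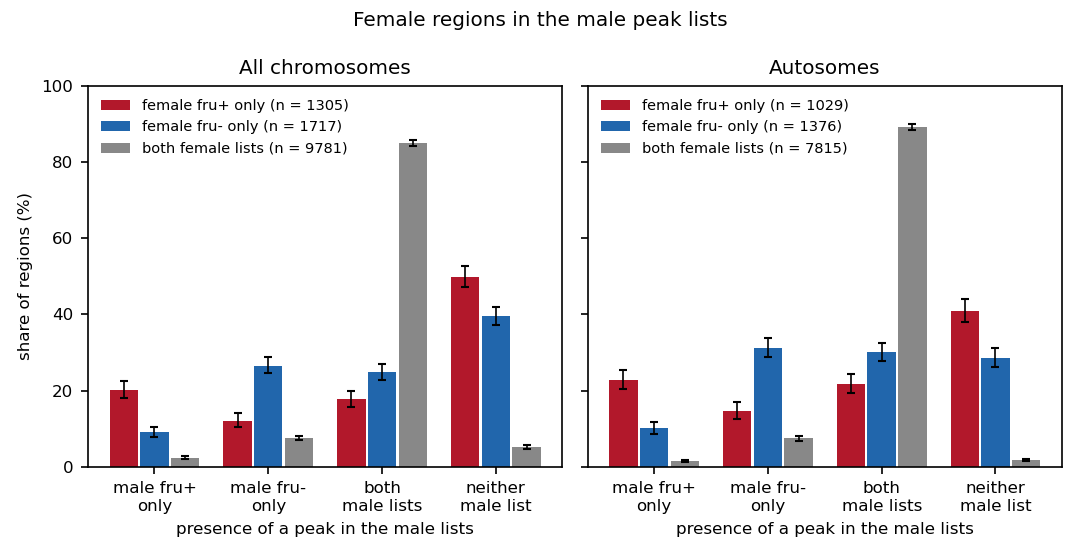
Share of regions (%, y axis) with a peak in male fru+ only, male fru- only, both male lists or neither (x axis), for female fru+ only, female fru- only and both female lists, with 95% Wilson intervals as bars. Left, all chromosomes, where 20.2% of female fru+ only regions were in male fru+ only and 26.6% of female fru- only regions were in male fru- only. Right, autosomes, where fewer regions of every kind lacked a male peak.

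Peaks of both male lists overlapped 232 female fru+ only and 425 female fru- only regions. There the fold was higher in male fru+ than in male fru- at 145 female fru+ only regions (62.5%, 56.1 to 68.5) and at 234 female fru- only regions (55.1%, 50.3 to 59.7), against 32.6% of regions of both lists (31.6 to 33.6). Among weak regions of both lists, in the lowest 25% of ranks, the share was 56.8% (52.1 to 61.3), and at that strength it was 64.6% (56.8 to 71.6) for female fru+ only and 63.8% (58.0 to 69.2) for female fru- only. Above that rank it was 58.1% (46.7 to 68.7) for female fru+ only and 38.4% (30.9 to 46.5) for female fru- only, against 31.3% (30.3 to 32.3) for both lists. The share thus differed little between the kinds of member among weak peaks, and among stronger ones it was higher for female fru+ only. Absence from the male lists was more frequent on X for every kind of region. No male peak overlapped 230 of 276 female fru+ only regions on X (83.3%, 78.5 to 87.3) and 286 of 341 female fru- only regions on X (83.9%, 79.6 to 87.4), while on autosomes this held for 40.9% of female fru+ only and 28.6% of female fru- only regions. Regions of both lists showed the same order at lower levels, with 18.6% (16.9 to 20.4) on X and 1.75% (1.49 to 2.07) on autosomes. Males have a single X, and the part of X dose in these absences cannot be told apart from that of accessibility.

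Most of the strongest female fru+ only regions had a male peak. Of the 10 of highest -log10 q, 5 were in both male lists, 1 was in male fru+ only, 2 were in male fru- only and 2 were in neither, and 4 were at promoters. The RpL23A promoter, at a gene for a protein of the large ribosomal subunit, had a fold of 4.44 in female fru+, no peak in female fru- or male fru+, and a fold of 4.21 in male fru-. At the CG9630 promoter the fold was 5.31 in female fru+, the highest of any female fru+ only region, and no other list had a peak. An intergenic site near ph-d, a Polycomb group gene, had folds of 2.80 in female fru+, beside 2.71 in male fru+ and 3.62 in male fru-. At none of these 3 sites was the fold higher in male fru+ than in male fru-. It was higher in the intron of mbl, which encodes the splicing factor Muscleblind, with folds of 4.92 in female fru+, beside 7.09 in male fru+, then 2.82 in male fru-. The CycB3 promoter, at a cyclin gene, had folds of 4.85 in female fru+, beside 4.22 in male fru+ and 4.43 in male fru-. CG7544, CG2113, tRNA:Thr-AGT-1-3, fru and lncRNA:CR45569 completed the 10, with folds between 4.67 and 5.24 in female fru+. A width under 400 bp was found for 9 of the 10, the fru intron being the exception at 1438 bp.

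Female fru- only regions reached higher values. Their 10 strongest had folds of 5.69 to 8.28 in female fru-, and 7 were in both male lists, 1 was in male fru- only and 2 were in neither. The strongest, in the 5' UTR of nuf, a gene for an endosomal protein needed for the cleavage furrow, had folds of 8.28 in female fru-, beside 8.23 in male fru+ and 7.80 in male fru-. An intergenic site whose nearest start site, 6408 bp away, was that of CadN, which encodes the adhesion protein N-cadherin, had folds of 7.36 in female fru-, beside 7.17 in male fru+ and 7.35 in male fru-. Both sites were thus about equally enriched in 3 lists and uncalled in female fru+. Peaks of both male lists were also found at an intron of lola, a BTB zinc finger gene of axon growth, with folds of 6.27 in female fru-, beside 4.85 in male fru+ and 5.41 in male fru-. They were found as well at the promoters of CG4951, of PIG-B, an enzyme of GPI anchor synthesis, and of RpL9, another protein of the large ribosomal subunit, with folds of 5.69 to 6.27 in female fru-. An intergenic site near the histone pseudogene His-Psi:CR31616 had 5.92 in female fru-, beside 5.27 in male fru+, then 5.99 in male fru-. The intron of CG34417 was in 1 male list, with 6.04 in female fru-, none in male fru+ and 3.32 in male fru-. A site near CG7420 (fold 6.04 in female fru-) and an intron of TfAP-2, a transcription factor gene (5.81), had no male peak. Of these 10 regions, 9 were under 400 bp wide.

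**Figure D3:**
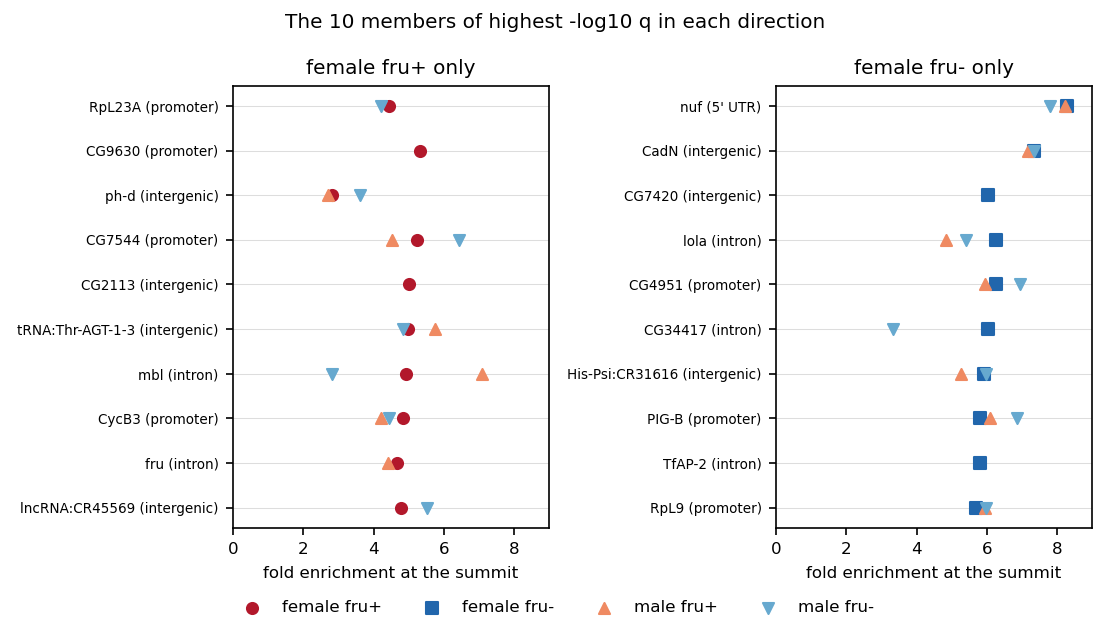
Fold enrichment at the summit (x axis) in each list for the 10 members of highest -log10 q of each direction (rows, gene and position), with a symbol missing where a list had no peak. Symbols of both male lists are carried by 5 of the 10 female fru+ only rows and 7 of the 10 female fru- only rows. CG9630, CG2113, CG7420 and TfAP-2 carry a single symbol.

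Members in the male list of the same fru status and not in the other were led in female fru+ by fru, then by an intergenic site near CG15615 with folds of 4.52 in female fru+ and 5.33 in male fru+. The site near lncRNA:CR45259 had folds of 4.12 in female fru+ and 2.48 in male fru+. An intron of insc, which orients the division of neuroblasts, had 4.196 in female fru+ and 2.25 in male fru+. A site 92 bp from the start of CCHa1, the gene of the neuropeptide CCHamide-1, had 4.13 in female fru+ and 4.38 in male fru+. For female fru- only the list was led by CG34417 and the promoter of GstE3, a glutathione transferase (5.35 in female fru-, 4.58 in male fru-). Next came a region within CG14431 at the start site of Setd3 (5.17 in female fru-, 3.98 in male fru-). An intron of the nicotinic receptor gene nAChRalpha3 (4.89 in female fru-, 3.42 in male fru-) and the promoter of Spp, a signal peptide peptidase (3.58 in female fru-, 3.80 in male fru-), followed. The nAChRalpha3 site has a second, near-identical copy in the genome, as did 1 female fru+ only and 4 female fru- only regions in all. The authors kept only reads that passed a quality filter, and how that filter treated reads of such copies was not tested.

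The fru gene (chr3R:18414273-18545586, minus strand), on whose reporter the neurons were sorted, held 7 female fru+ only regions, no female fru- only region and 6 regions of both lists. Its length under peaks was 5872 bp for female fru+ and 1828 bp for female fru-, against 8601 bp for male fru+ and 2147 bp for male fru-. The most upstream promoter was open in all lists, with folds of 4.998 in female fru+, 5.34 in female fru-, beside 4.82 in male fru+, then 5.36 in male fru-. The female lists thus differed inside the gene and not at this start. Of the 7 members, 6 were intronic and 1 lay in the 3' UTR. The widest, an intron 35907 to 37345 bp downstream of the most upstream end (chr3R:18508242-18509679), had folds of 4.67 in female fru+ and 4.42 in male fru+. A region 51750 bp downstream had 4.26 in female fru+, beside 3.01 in male fru+ and 3.02 in male fru-, and it was the sole member of fru with a male fru- peak. Members starting 9267, 13676 and 15198 bp downstream and the 3' UTR region recurred in male fru+ and not in male fru-, with folds of 2.49 to 3.21 in female fru+ and 2.74 to 3.69 in male fru+. A region 20617 bp downstream, of fold 2.56, had no male peak. In all, 5 of the 7 had a peak of male fru+ alone, 1 of both male lists and 1 of neither.

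By the number of female fru+ only minus female fru- only regions within a gene, fru stood first with a difference of 7, followed by lilli (5), Gfrl (4), beat-Ib (4) and 5-HT1A (3), the last tied with other genes and taken for its highest -log10 q, since 22 genes had a difference of at least 3. A difference of at least 4 in favour of female fru+ was found for 4 of 7758 genes that held any region. The 6 female fru+ only regions of lilli, which encodes an AF4/FMR2 family nuclear protein, had folds of 2.21 to 2.95 in female fru+, and 2 of them recurred in male fru-, none in male fru+. In Gfrl, a receptor related to those for GDNF, folds were 2.75 to 3.21, and 3 of 4 regions had no male peak. In beat-Ib, of the Beaten path family of Sidestep receptors, folds were 2.16 to 2.49, with 1 of 4 regions in male fru+ only and 2 in male fru- only. The serotonin receptor gene 5-HT1A had 4 female fru+ only regions and 1 female fru- only region, and 4 of these 5 had no male peak. Recurrence in male fru+ and not male fru- was thus found for 5 of 7 members in fru, against 1 of 4 in beat-Ib, 1 of 4 in 5-HT1A and none of the female fru+ only regions of lilli and Gfrl.

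In the other direction Rbp6, an RNA-binding protein of the Musashi family, led with a difference of 10, followed by Ten-a (8), Ptp99A (6), bru3 (6) and Pde1c (6), with Glut1 at the same difference of 6 but lower in -log10 q. A difference of at least 4 in favour of female fru- was found for 15 genes. Rbp6 held 11 female fru- only regions, all intronic, and 1 female fru+ only region, and its peaks numbered 18 for female fru+ and 28 for female fru-, against 20 for male fru+ and 29 for male fru-. Folds of the 11 were 2.28 to 3.54 in female fru-, and 5 recurred in male fru- only, 3 in both male lists and 3 in neither. The female fru+ only region of Rbp6, of fold 3.15, had no male peak. Ten-a, a teneurin that matches synaptic partners, lies on X and held 5 female fru+ only and 13 female fru- only regions, 15 of them without a male peak and the other 3 in male fru- only. Ptp99A, a receptor tyrosine phosphatase of motor axons, had 7 female fru- only regions, one of which (chr3R:29405907-29406549) had folds of 5.55 in female fru-, beside 3.11 in male fru+ and 4.28 in male fru-. In bru3, a Bruno family RNA-binding protein gene, 5 regions were female fru+ only and 11 female fru- only, and of these 16 members 8 recurred in the male list of the same fru status only and 4 in that of the opposite status only. Pde1c, a phosphodiesterase gene, had 1 female fru+ only and 7 female fru- only regions. These 5 genes are long, from 109486 to 291517 bp. Regions of both lists numbered 17 in Rbp6, 30 in Ten-a, 3 in Ptp99A, 31 in bru3 and 7 in Pde1c. In either direction the difference makes no allowance for the number of regions that a gene holds.

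**Figure D4:**
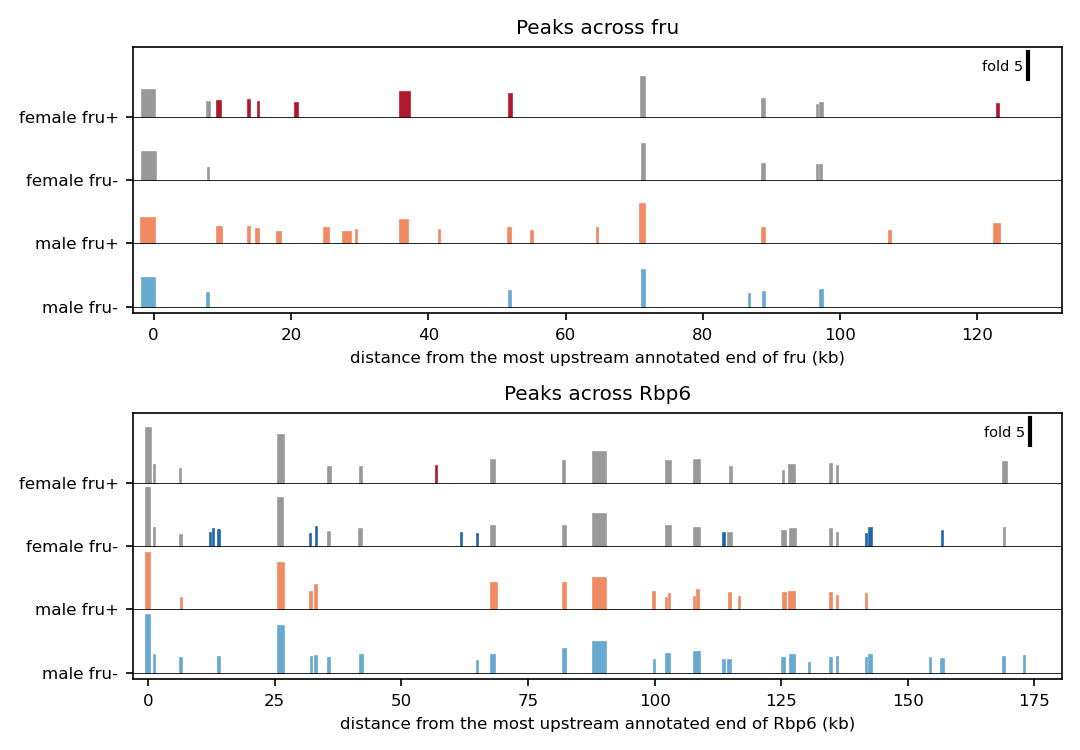
Peaks of each list (rows) along fru and Rbp6, by distance from the most upstream annotated end (kb, x axis), with bar height giving fold enrichment on the scale shown. Coloured peaks in the female rows are members and grey ones belong to regions of both lists; fru has 7 coloured peaks in female fru+ and none in female fru-, and Rbp6 has 1 and 11.

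Across all genes the 2 directions shared many hosts. At least 1 female fru+ only region was assigned to 937 genes and at least 1 female fru- only region to 1184, by the gene around it or the nearest start site. Both kinds were given to 373 genes, which were 39.8% of the first set and 31.5% of the second. Such genes had different sites called in each female list. No background was set beside these shares, and a gene that holds many regions has more chances of both kinds.

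Gene lists were read against all regions away from promoters, since members were rarely at promoters. There female fru+ only regions made up 16.2% and female fru- only regions 20.1%. Genes of synaptic partner recognition and adhesion, among them the dpr and DIP families, beat and side genes, teneurins and cadherins, had 95 female fru+ only (19.0%, 15.8 to 22.7) and 136 female fru- only (27.3%, 23.5 to 31.3) of 499 such regions. The female fru- only share lay above its background with an interval that excluded it, and the female fru+ only share did not. Of the 84 genes, 43 had a female fru+ only region, 48 had a female fru- only region and 36 had both, again with no background for the overlap. After CadN, the strongest was a region at a start site within kirre, an adhesion protein of the nephrin group, on X. It had a fold of 4.83 in female fru- and no male peak. An intron of Dscam3 had 3.75 in female fru-, beside 2.64 in male fru+, then 3.09 in male fru-. The intergenic region 16015 bp from Nlg4, a neuroligin gene, was female fru+ only, and an intron of Nlg4 was female fru- only (3.91 in female fru-, 3.12 in male fru-).

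Axon guidance genes had 17 female fru+ only (16.5%, 10.6 to 24.9) and 31 female fru- only (30.1%, 22.1 to 39.5) of 103 regions away from promoters. Besides Ptp99A, an exon of Sema2b, a secreted semaphorin, had a fold of 4.43 in female fru- and no male peak. NetB, a netrin, had 3.51 in female fru- and none in the males, and dally, a glypican, had 3.62 in female fru-, beside 5.17 in male fru+ and 3.22 in male fru-. RNA-binding protein genes showed a similar female fru- only share, 65 of 251 (25.9%, 20.9 to 31.6), beside 38 female fru+ only (15.1%, 11.2 to 20.1). The strongest of them was an intron of pum, a translational repressor, with 5.29 in female fru-, beside 5.64 in male fru+ and 7.09 in male fru-. In shep the strongest member was female fru+ only, with 3.87 in female fru+, beside 2.74 in male fru+ and 2.97 in male fru-. In the adhesion, axon guidance and RNA-binding lists the interval of the female fru- only share lay above the background of 20.1%, and that of the female fru+ only share held the background of 16.2%. For the RNA-binding list the margin was narrow, and Rbp6 and bru3 each held 11 of its 65 female fru- only regions. The intervals treat regions of the same gene as independent, and whether the share holds without these genes was not tested.

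Receptors of acetylcholine, GABA and glutamate had 15 female fru+ only (17.6%, 11.0 to 27.1) and 25 female fru- only (29.4%, 20.8 to 39.8) of 85 regions away from promoters, and here too the interval of the female fru- only share lay above the background. In nAChRalpha3 alone 7 members of each kind were found. The muscarinic receptor gene mAChR-B had 4 female fru- only regions and none of the other kind, the strongest with folds of 4.54 in female fru-, beside 3.43 in male fru+ and 3.42 in male fru-. An intron of GluClalpha, a glutamate-gated chloride channel, had 3.52 in female fru-, beside 3.44 in male fru+ and 3.13 in male fru-. Amine receptors had 12 female fru+ only (15.2%) and 19 female fru- only (24.1%) of 79. The strongest member of that list was an intron of 5-HT1A with 3.58 in female fru+ and no other peak, followed by an intron of 5-HT2A with 3.45 in female fru-, beside 3.64 in male fru+ and 2.62 in male fru-. Voltage-gated and potassium channel genes had 18 female fru+ only (17.5%) and 17 female fru- only (16.5%) of 103. An intron of the calcium-activated channel gene SK had 3.79 in female fru- and 2.11 in male fru+. SLO2 had 3 female fru+ only regions and none of the other kind, the strongest with 3.15 in female fru+ and 4.17 in male fru+.

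Genes that set transmitter and peptide identity gave few regions. The promoters of Vmat, the vesicular monoamine transporter, and SerT, the serotonin transporter, were female fru+ only, and both were in both male lists with a higher fold in male fru+. Vmat had 3.74 in female fru+, beside 4.22 in male fru+ and 2.06 in male fru-, and SerT had 2.82, 3.64 and 2.62 in the same order of groups. Tbh, the enzyme that makes octopamine, had 2 regions of each kind, the strongest with 3.62 in female fru- and no male peak. Besides CCHa1, the promoter of the peptide gene Dh31 was female fru+ only (3.47 in female fru+, 4.43 in male fru+, 3.47 in male fru-). Dh31 also held 1 female fru- only region, and the peptide gene sNPF held 2. The promoter of Mip, the myoinhibitory peptide gene, was female fru- only (3.56 in female fru-, 2.72 in male fru-).

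Transcription factors of neuron identity differed from the lists above. Homeodomain and POU genes had 6 female fru+ only (7.14%, 3.31 to 14.7) and 7 female fru- only (8.33%, 4.09 to 16.2) of 84 regions away from promoters, below the background in both directions. Ecdysone response genes had 3 (3.57%, 1.22 to 9.98) and 4 (4.76%, 1.87 to 11.6) of 84. In both lists most of the regions were shared by the female groups. Among the few members, an intron of the homeobox gene C15 had 3.999 in female fru+, beside 5.85 in male fru+ and 4.73 in male fru-, and a site near Vsx1 had 3.97 in female fru- and no male peak. BTB zinc finger and Sox genes had 13 female fru+ only (18.3%) and 10 female fru- only (14.1%) of 71, and 7 of the 13 were those of fru. An intron of mamo had 3.75 in female fru- with no male peak, and an intron of ab had 3.47 in female fru+ and 2.64 in male fru+. In the sex determination and dosage compensation list, fru held all 7 female fru+ only regions, and a dsx intron was the 1 female fru- only region, with 2.36 in female fru- and 3.48 in male fru+. Circadian clock genes had 3 female fru+ only and 2 female fru- only of 18, with an added female fru- only region at the promoter of vri (2.97 in female fru-, no male peak).

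Markers of cell types were checked in the same way, because Kenyon cells were kept out of the fru+ sort. Kenyon cell marker genes had 13 female fru+ only (15.3%, 9.16 to 24.4) and 18 female fru- only (21.2%, 13.8 to 31.0) of 85 regions away from promoters, and both intervals held the background. An exon of Rgk1 had 3.21 in female fru- and 3.08 in male fru-, an intron of trio had 3.68 in female fru-, beside 3.16 in male fru+ and 3.77 in male fru-, and an intron of sNPF had 3.51, 2.53 and 3.22 in the same order of groups. In mub, 4 regions were female fru+ only and 5 female fru- only. Other genes of the list had members of the opposite kind alone, with 1 female fru+ only region in ab, 2 in dnc and 2 in toy and no female fru- only region in these, which are named after their values were seen. The part of Kenyon cells in the female fru- only regions was not tested. Pan-neuronal genes had 3 of each kind of 29. Glial genes had no female fru+ only region. Promoters included, 3 of their 7 regions were female fru- only (42.9%, 15.8 to 74.95), against 13.4% over all regions. Away from promoters it was 2 of 3 (66.7%, 20.8 to 93.9), against 20.1%. Both intervals lay above the background but rest on few regions of 1 gene. All 3 female fru- only regions were at the glutamate transporter gene Eaat1, whose promoter had 3.85 in female fru- and no male peak. The neuroblast list had the insc intron as its 1 member.

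**Figure D5:**
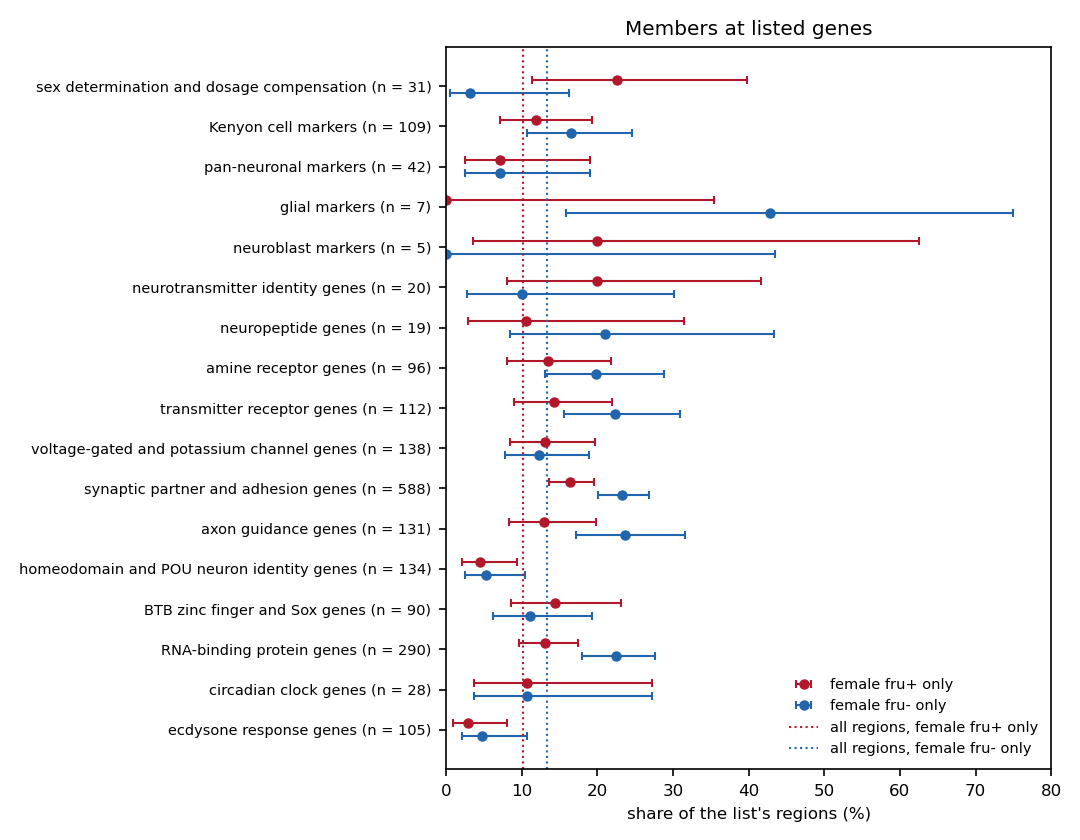
Share of each list's regions (%, x axis), promoters included, that were female fru+ only or female fru- only, with 95% Wilson intervals as bars and the shares over all 12803 regions (10.2% and 13.4%) as dotted lines; n is the number of regions at the listed genes. The female fru- only intervals of adhesion, axon guidance, transmitter receptor, RNA-binding protein and glial genes lie right of their line, the glial one with 7 regions. Homeodomain and ecdysone response genes lie left of both lines.

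The sequence under the summits was compared over the same 200 bp windows. The median GC content away from promoters was 48% for female fru+ only and 50% for female fru- only regions, against 49.5% for both lists. Exact matches on either strand were counted for 10 motifs, none of which contains another. The E-boxes of basic helix-loop-helix factors were searched with CAGCTG, and in other forms with CATCTG and with CACGTG as the central bases. The homeodomain motif was TAATTA and the POU octamer was ATGCAAAT. For AP-1 the letters were TGACTCA, for the CRE they were TGACGTCA, and for the DRE they were TATCGATA. The GAGA factor motif was GAGAGAGA and the Sox motif was AACAAT.

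The homeodomain motif TAATTA was found in 4.08% of female fru+ only (3.10 to 5.35) and 7.99% of female fru- only windows (6.72 to 9.48) away from promoters, against 4.85% for both lists and 5.36% over all such regions. ATGCAAAT went the other way, with 5.58% of female fru+ only (4.42 to 7.02) and 3.36% of female fru- only windows (2.56 to 4.40), against 4.15% for both lists and 4.22% over all. AACAAT was in 19.2% of female fru+ only (17.1 to 21.6) and 14.5% of female fru- only windows (12.8 to 16.4), against 14.1% for both lists and 14.99% over all. For each of these 3 motifs the intervals of the 2 kinds of member did not overlap, although for ATGCAAAT they nearly met. GAGAGAGA was less frequent in both kinds of member, 2.17% in female fru+ only and 3.09% in female fru- only, than in regions of both lists (7.04%), with 5.45% over all. For CAGCTG the shares were 11.1% in female fru+ only, 11.6% in female fru- only and 12.4% in both lists, with 12.02% over all. Over all these regions the other E-boxes were in 9.40% for the CATCTG form and 4.599% for the CACGTG form, the AP-1 motif in 1.39%, the CRE in 0.676% and the DRE in 0.230%. These matches describe letters in the windows and do not show that a factor was bound.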

How the data were processed

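ATAC-seq libraries came from 2 replicates of each of 4 groups, and the deposited files hold 1 peak list per group. Per the labels and the study's methods, the authors trimmed reads with cutadapt, used Bowtie2 for alignment to dm6, marked duplicates by Picard, filtered with SAMtools, and called peaks with MACS2 at an FDR of 0.001; versions are not given in the sources used here, and a shift of reads for the transposase is not described there. The labels say that replicates were pooled, but the peak names carry replicate 2 in the female lists and replicate 1 in the male lists, so a list may hold 1 replicate. In the deposited lists the authors' MACS2 gave each peak a score, a fold enrichment (a ratio to the local background), a -log10 p-value and a -log10 q-value. Peaks outside the 6 main chromosome arms were left out.

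Peaks were merged and compared in Python 3.11.15 with NumPy 2.4.6, SciPy 1.17.1 and matplotlib 3.10.9, after the steps were tested on simulated data. Positions and genes came from Ensembl release 115 (BDGP 6.54), a region being given to the gene around it or else to the nearest start site. Copies were sought with BLAST+ 2.17.0 at 95% identity over 80% of the region. Named regions were the 10 of highest -log10 q per direction and the 5 highest in each male-list class, named genes the 5 largest net numbers per direction, and up to 4 genes were taken per list. The members and the 17 gene lists were chosen with earlier results of these data known. With 1 list per group no test was possible, and total reads per list were not used here. The study compared replicates with DiffBind, which needs reads, and reported few differential peaks between the 2 female groups. Regions called in 1 list only are a different measure and are not a count of tested differences. Alternatives changed the q and fold minimum, the overlap, the number of peaks, the scale of the summit count, the promoter distance, the chromosomes and the peak width.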

Additional observations from a re-analysis of the deposited data

Results flagged for a closer look

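Some members went against fru status in the male lists, and this difference was not tested. Of the female fru+ only regions, 158 had a peak in male fru- and none in male fru+, and of the female fru- only regions, 156 had a peak in male fru+ and none in male fru-.

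The strongest of the first kind were the promoter of RpL23A (fold 4.437 in female fru+), a site near lncRNA:CR45569 (4.786), the promoter of RpL10Ab, a ribosomal protein gene (4.001), a site near Nlg4 (4.096) and a site near CR46418 (4.13). In male fru- their folds were 4.209, 5.535, 3.741, 3.22 and 2.868 in that order. The strongest of the second kind were the promoter of Polr2F, an RNA polymerase II subunit gene (3.504 in female fru-), a site near Hand, a heart transcription factor gene (5.117), a site near bap, a visceral muscle homeobox gene (4.945), an exon of wb, a laminin gene (4.715), and the 3' UTR of CG8303 (4.14). In male fru+ their folds were 3.03, 5.432, 5.643, 4.588 and 3.692 in that order.

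Outside the chromosomes compared, the female lists each held 1 peak on Y, a chromosome that females lack, with a fold of 13.11 in female fru+ and 14.26 in female fru-, beside 6 Y peaks in male fru+ and 7 in male fru-.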

How the results depend on the processing

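Of 106 values of 12 results under alternative settings, 70 stayed within the main interval or within 1.5 times the main count, and 36 moved. In the main setting, 92.49% of regions of both female lists had a male fru- peak and 87.43% a male fru+ peak. The direction of the male comparison held for female fru- only regions under every setting, though it was not particular to them. For female fru+ only regions it did not hold at a -log10 q of at least 10 in both lists, where 655 regions were female fru+ only, among them regions of both lists whose weaker female fru- peak was dropped, 56.34% with a male fru+ and 57.71% with a male fru- peak; 50.32% and 71.52% of female fru- only regions had them, promoter shares were 12.98% for female fru+ only and 20.25% for female fru- only, the X share of female fru- only regions was 22.15%, and fru held 3 female fru+ only regions. At a -log10 q of at least 5, a male fru- peak was at 32.91% of female fru+ only and 55.86% of female fru- only regions, and fru held 1 female fru- only region. At a fold of at least 3 there were 319 female fru+ only and 433 female fru- only regions, and, in that order of groups, promoter shares of 14.73% and 24.48%, an X share of 18.81% for female fru+ only, 46.71% and 44.34% with a male fru+ peak, 41.07% and 67.21% with a male fru- peak, and 3 female fru+ only regions in fru. With both lists cut to the same number of peaks, a male fru- peak was at 32.56% of female fru+ only and 55.3% of female fru- only regions. With a promoter taken as 500 bp, promoter shares were 13.87% for female fru+ only and 18.64% for female fru- only. On autosomes, 44.41% of female fru+ only and 40.12% of female fru- only regions had a male fru+ peak and 36.35% and 61.26% a male fru- peak. A minimum of 300 bp for the strongest peak, chosen after seeing the data, left 471 female fru+ only and 638 female fru- only regions, in the same order 46.5% and 38.24% with a male fru+ peak and 37.37% and 64.73% with a male fru- peak. The cause of these changes was not tested. No paired analysis was possible because there was 1 peak list per group, and for the same reason no replicate could be left out. When the count of fragments at the summit was scaled to the other list, 1305 female fru+ only and 1690 female fru- only regions still passed. For female fru+ only regions this outcome was fixed in advance. Scaling from a background of 14.3 to 16.4 fragments raises their counts, so their values in this setting repeat the main ones. They are counted among the 70 that stayed. Whether a region would be called in the other list at equal depth was not tested.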
